A study of Mus musculus with 22 samples.

Results

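The genes described here are 9 immediate early genes, taken by name: the zinc finger transcription factors Egr1, Egr2, Egr3 and Egr4, the neuronal activity genes Arc and Npas4, and the early response genes Ier2, Ier3 and Dusp1. They are 9 of the 20674 protein-coding genes in the files, and all 9 were measured in all 22 libraries. The rule that picks them gives names and sets no threshold on a measured value. Levels are given in TPM, a share of transcripts scaled for transcript length, which can therefore be compared between genes.

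Immediate early genes are transcribed within minutes of a stimulus, because the factors that switch them on are already present in the resting cell and only need to be phosphorylated. Calcium entry and MAP kinase signals reach their promoters mainly through CREB, which binds cyclic AMP response elements, and through SRF with its partners at CArG boxes. In neurons these genes follow synaptic activity, and in lymphocytes they follow the antigen receptor, where EGR2 and EGR3 also restrain the activated T cell.

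Poly(A) RNA was sequenced from mouse cells and tissues, and each group is 1 library. The 9 CD4 T-cell libraries were total CD4+ T cells, activated non-Tfh T cells (sorted as CD4+CD44+CXCR5-PD1-CD25-), follicular helper cells (Tfh) and follicular regulatory cells (Tfr, sorted as CD4+CD44+CXCR5+PD1+CD25+), each as an unmarked library and a library labelled MUT, and CD4+ T cells given ConA (concanavalin A, a lectin that stimulates T cells). The labels do not say which gene or allele MUT stands for, and they give no age, sex or animal for any library. The 7 primary B-cell libraries were splenic B cells and 6 cultures named after their stimuli: LPS alone, aCD40+IL4, aBCD180, and LPS with IL4, IL21 or a-d-dextran. Lipopolysaccharide (LPS) from bacteria drives B cells to divide, and helper T cells secrete IL4 and IL21. Mature B cells came from C57BL/6J spleen by negative selection, and no culture time is given for any of them. Sensorimotor cortex, putamen and medulla oblongata were the brain libraries. Back skin, basophils and clone bc5 of the B-cell lymphoma line CH12 made up the rest.

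Total expected counts per library ran from 30.8 to 147.9 M with a median of 46.2 M. No label names separate animals or cultures, so a p-value reflects the spread of these libraries alone. That spread may be technical, and in the sorted T libraries it includes differences between MUT and unmarked libraries. Marker transcripts matched the labelled tissues in the brain libraries, but some sorted libraries held transcripts of other cells. The summed level of 6 B-cell markers was 682 TPM in Tfh MUT and 490 TPM in Tfr against 89.6 to 176 TPM in the other 6 sorted T libraries. The summed level of 8 macrophage markers was 392 TPM in splenic B cells against 13.0 to 48.1 TPM in the B cultures. The LPS+IL4, splenic B, ConA and CH12 libraries also stood apart in their tables, where gene length exceeded effective length by 49.0 bases against 48.56 to 48.57 in the other 18, and the part of this in their values was not tested for single libraries. Fewer cells of a type and less RNA per cell cannot be told apart in these bulk libraries.

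Promoters are shown for 4 members. Egr2, Egr4 and Npas4 were each higher in Tfh and Tfr than in CD4+ cells, and Dusp1 was added because it holds the full palindromic element. These 4 are also the matched members whose windows hold the core of the cyclic AMP response element (CRE). Ier3 was matched too, but its window has no such core and is not shown. The RefSeq promoter table used here (GRCm38.p6) matched 5 of the 9 members, and the 250 bases before the RefSeq start were searched on both strands. For Egr2, with 5 windows, the window nearest the start of its principal GENCODE transcript was taken. Capitals mark the CRE core TGACG or its reverse complement, the CArG box and the NF-kB motif, and each run reads 5′ to 3′ in the direction of transcription.
Egr2, chr10:67537619-67537868, plus strand: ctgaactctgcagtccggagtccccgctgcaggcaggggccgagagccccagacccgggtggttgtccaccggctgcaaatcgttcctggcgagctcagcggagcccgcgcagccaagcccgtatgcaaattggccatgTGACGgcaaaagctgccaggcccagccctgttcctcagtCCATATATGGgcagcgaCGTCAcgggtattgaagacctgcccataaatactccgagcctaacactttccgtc
Egr4, chr6:85513590-85513839, minus strand: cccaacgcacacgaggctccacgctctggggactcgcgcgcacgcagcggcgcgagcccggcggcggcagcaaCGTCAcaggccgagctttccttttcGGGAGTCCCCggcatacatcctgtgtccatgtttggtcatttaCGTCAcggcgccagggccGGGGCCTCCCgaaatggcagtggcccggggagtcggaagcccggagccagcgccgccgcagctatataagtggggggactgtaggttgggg
Dusp1, chr17:26508520-26508722, minus strand: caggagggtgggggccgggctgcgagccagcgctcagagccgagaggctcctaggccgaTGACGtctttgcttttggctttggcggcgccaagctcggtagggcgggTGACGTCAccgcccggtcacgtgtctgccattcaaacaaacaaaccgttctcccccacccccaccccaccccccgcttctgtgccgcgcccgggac
Npas4, chr19:4990136-4990150, minus strand: CGTCAcgggaTGACG

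The CRE core was present in 4 of the 5 windows (Egr2, Egr4, Npas4 and Dusp1), against 17.8% of all 32851 RefSeq windows of the same length. The palindrome TGACGTCA, which contains the core on both strands, stood in the Dusp1 window and in 1.55% of all windows. A CArG box was found in the Egr2 window, 72 to 63 bases before the start, and in 1.47% of all windows. The NF-kB motif was found in the Egr4, Npas4 and Ier3 windows and in 7.25% of all windows. The EGR motif GCGNGGGCG (4.7% of all windows) and the AP-1 motif TGANTCA (6.75%) had no match in the 5 windows, which says only that these letters are not there. In GENCODE vM21, Egr2 spans chr10:67535475-67542188 and its printed stretch lies in an intron of longer transcripts. Egr4 spans chr6:85511121-85513589 and its stretch is intergenic. For Npas4 (chr19:4984355-4990316) only the pair of cores is shown, since all 250 bases of the window are exonic in this annotation. Its RefSeq start lies 345 bases downstream of the start of its principal GENCODE transcript, so this window is not upstream of that start. For Dusp1 (chr17:26505590-26562128) the exonic bases next to the start are left out and the rest is intronic in a longer transcript.

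**Figure D1:**
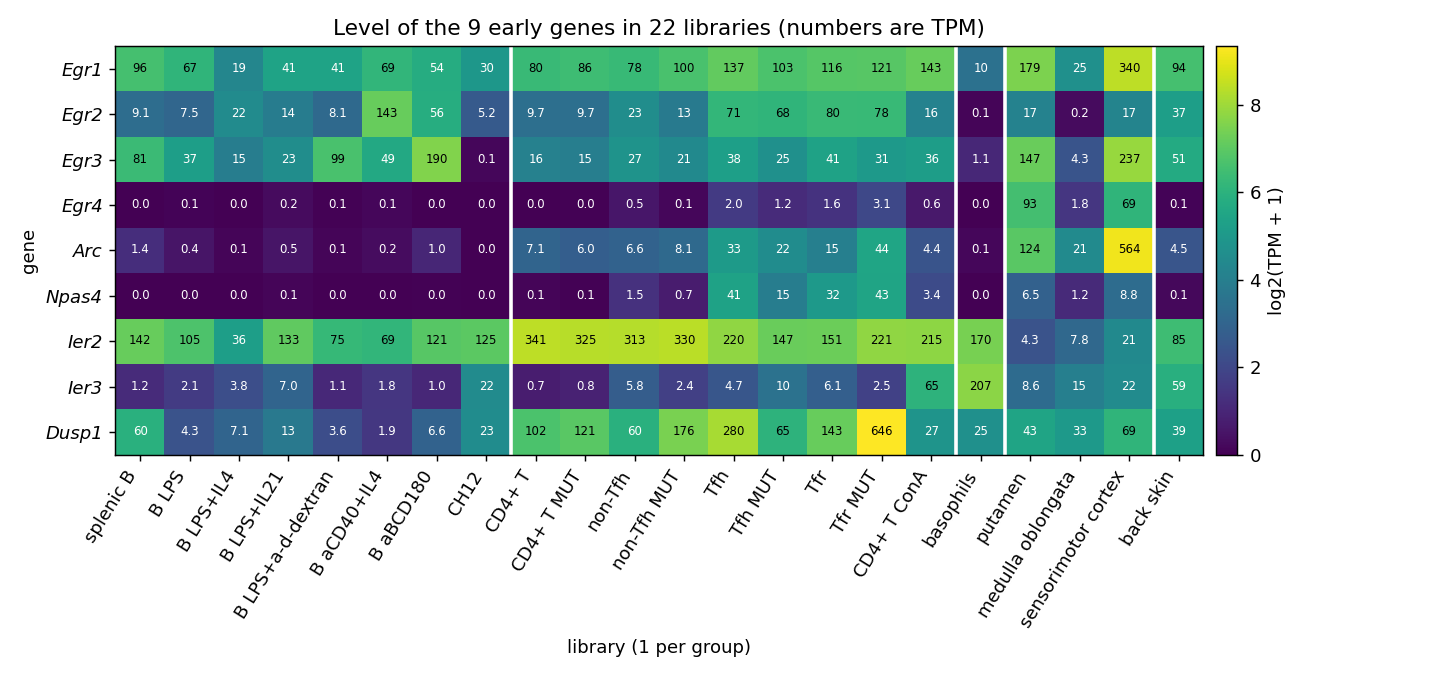
Heat map of the 9 genes (rows) in the 22 libraries (columns), coloured by log2(TPM + 1), with the TPM printed in each cell. Egr4 is high in putamen and cortex alone, Npas4 is highest in the Tfh and Tfr libraries, and Arc runs from 0 TPM in CH12 to 564 TPM in cortex.

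Across the 22 libraries the members did not share 1 pattern. Egr1 was the most evenly expressed EGR gene, from 10.3 TPM in basophils through a median of 83.1 TPM to 340 TPM in cortex. Egr2 peaked in aCD40+IL4 B cells (143 TPM) and in Tfr and Tfh cells, whereas Egr3 peaked in cortex (237 TPM), aBCD180 B cells (190.2 TPM) and putamen (147 TPM). Egr4 stood at 92.8 TPM in putamen and 68.7 TPM in cortex and at 3.08 TPM or less in the other 20 libraries. Npas4 reached 42.7 TPM in Tfr MUT and 40.6 TPM in Tfh, above its 8.78 TPM in cortex, the highest of the 3 brain regions. Ier2 was highest in CD4+ T cells (341 TPM), Ier3 in basophils (207 TPM) and Dusp1 in Tfr MUT (646 TPM).

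Follicular T cells were compared with total CD4+ and with activated non-Tfh cells in a fit over the 8 sorted libraries, with population and the MUT label as terms. No population has a second library of the same label. The spread in this fit is therefore how the MUT minus unmarked difference varies between populations, not a spread between replicates. Tfh and Tfr cells held more Egr2, Egr3, Egr4 and Npas4 and less Ier2 than CD4+ cells, while Egr1 and Dusp1 passed the test in no contrast between T populations. In Tfh against CD4+, 6 of the 9 members passed (5 higher, 1 lower; edgeR quasi-likelihood test, Benjamini-Hochberg adjusted p under 0.05 over 13064 genes), where 26.4% of all genes did. In Tfr against CD4+, 6 of 9 passed as well (5 higher, 1 lower), where 30.4% of all genes did. The median log2 difference over the 9 members was 1.82 in Tfh and 1.83 in Tfr, beside 0.03 and 0.02 over all genes tested. All contrasts below share these 8 libraries, so they are not independent of each other.

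Npas4 encodes a basic helix-loop-helix PAS factor that calcium signals induce in neurons. It was at 0.08 and 0.05 TPM in CD4+ and CD4+ MUT (11 and 4 reads), at 1.49 and 0.65 TPM in non-Tfh and non-Tfh MUT, at 40.6 and 14.6 TPM in Tfh and Tfh MUT, and at 31.6 and 42.7 TPM in Tfr and Tfr MUT. The lowest follicular library was above the highest of the other 4, and both non-Tfh libraries were above both CD4+ libraries. The log2 difference from CD4+ was 3.80 ± 0.71 (SE) in non-Tfh (edgeR adjusted p = 0.0474), 8.30 ± 0.74 in Tfh (0.00141) and 8.96 ± 0.75 in Tfr (edgeR adjusted p = 0.000986). Against non-Tfh it was 4.51 ± 0.57 in Tfh (edgeR adjusted p = 0.013) and 5.16 ± 0.59 in Tfr (0.00554).

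Egr2 encodes the EGR factor most tied to restraint of T-cell activation. Its level was 9.73 and 9.69 TPM in CD4+ and CD4+ MUT, 22.6 and 12.9 TPM in non-Tfh and non-Tfh MUT, 71.1 and 67.6 TPM in Tfh and Tfh MUT, and 79.9 and 78.0 TPM in Tfr and Tfr MUT. The 4 follicular libraries lay between 67.6 and 79.9 TPM and the other 4 at 22.6 TPM or below, with no overlap. Egr2 was 5.81-fold higher in Tfh than in CD4+ (log2 2.54 ± 0.26, edgeR adjusted p = 0.00207) and 3.57-fold higher than in non-Tfh (log2 1.84 ± 0.25, edgeR adjusted p = 0.0162). In Tfr it was 6.68-fold above CD4+ (log2 2.74 ± 0.26, edgeR adjusted p = 0.00141) and 4.10-fold above non-Tfh (log2 2.04 ± 0.26, edgeR adjusted p = 0.00689).

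Egr3, the close relative of Egr2, moved less. It was 16.0 and 15.1 TPM in CD4+ and CD4+ MUT, 26.7 and 20.5 TPM in non-Tfh and non-Tfh MUT, 37.7 and 25.0 TPM in Tfh and Tfh MUT, and 41.1 and 31.4 TPM in Tfr and Tfr MUT. Each follicular library was above both CD4+ libraries, but Tfh MUT lay below non-Tfh. The rise over CD4+ was 1.63-fold in Tfh (log2 0.70 ± 0.16, edgeR adjusted p = 0.0273) and 1.87-fold in Tfr (log2 0.91 ± 0.16, edgeR adjusted p = 0.0108). Against non-Tfh the log2 differences of 0.24 ± 0.16 and 0.44 ± 0.16 did not pass.

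Egr4, which is best known from the brain, was rare in T cells. It was listed at 0 TPM in CD4+ and 0.04 TPM in CD4+ MUT (0 and 2 reads), 0.49 and 0.13 TPM in non-Tfh and non-Tfh MUT, 1.97 and 1.23 TPM in Tfh and Tfh MUT, and 1.58 and 3.08 TPM in Tfr and Tfr MUT. The follicular libraries did not overlap the others, at 43 to 185 reads against 23 reads or fewer. With only 2 reads on the CD4+ side, the ratio of reads per depth was 106 in Tfh (95% counting interval 28.5 to 883) and 167 in Tfr (45.8 to 1390). Both contrasts passed (edgeR adjusted p = 0.022 and 0.0143).

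Arc, whose protein regulates glutamate receptors at synapses, was 7.14 and 5.99 TPM in CD4+ and CD4+ MUT, 6.64 and 8.07 TPM in non-Tfh and non-Tfh MUT, 33.5 and 22.2 TPM in Tfh and Tfh MUT, and 15.4 and 43.6 TPM in Tfr and Tfr MUT. The CD4+ and non-Tfh libraries lay within 5.99 to 8.07 TPM and all 4 follicular libraries above them. Arc was 3.56-fold higher in Tfr than in CD4+ (log2 1.83 ± 0.54, edgeR adjusted p = 0.0478). The Tfh difference was of like size (log2 1.82 ± 0.53) and missed the threshold (edgeR adjusted p = 0.0507).

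The 2 IER genes, which encode small proteins of the early response to growth signals and stress, went in opposite directions. Ier2 was 341 and 325 TPM in CD4+ and CD4+ MUT, 313 and 330.0 TPM in non-Tfh and non-Tfh MUT, 219.8 and 147 TPM in Tfh and Tfh MUT, and 151 and 221 TPM in Tfr and Tfr MUT. All 4 follicular libraries were below all 4 others. The fitted fall from CD4+ was 2.21-fold in Tfh (log2 -1.14 ± 0.29, edgeR adjusted p = 0.0366) and 2.19-fold in Tfr (log2 -1.13 ± 0.29, edgeR adjusted p = 0.0341). Ier3 was low throughout, at 0.70 and 0.84 TPM in CD4+ and CD4+ MUT, 5.83 and 2.41 TPM in non-Tfh and non-Tfh MUT, 4.67 and 10.4 TPM in Tfh and Tfh MUT, and 6.07 and 2.49 TPM in Tfr and Tfr MUT. Only its Tfh contrast passed (log2 3.05 ± 0.72, edgeR adjusted p = 0.0282), and the follicular and non-Tfh libraries overlapped.

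Egr1 and Dusp1 did not pass. Egr1, the most widely used early gene marker, was 79.7 and 86.5 TPM in CD4+ and CD4+ MUT, 78.2 and 100.2 TPM in non-Tfh and non-Tfh MUT, 137 and 103 TPM in Tfh and Tfh MUT, and 116 and 121 TPM in Tfr and Tfr MUT. The follicular libraries were the 4 highest, yet the log2 difference from CD4+ was 0.26 ± 0.20 in Tfh (edgeR adjusted p = 0.364) and 0.21 ± 0.20 in Tfr (edgeR adjusted p = 0.451). Dusp1 encodes a phosphatase that switches off MAP kinases. Its libraries disagreed within every population but CD4+: 102 and 121 TPM in CD4+ and CD4+ MUT, 60.0 and 176 TPM in non-Tfh and non-Tfh MUT, 279.6 and 64.9 TPM in Tfh and Tfh MUT, and 143 and 646 TPM in Tfr and Tfr MUT. Its Tfh minus CD4+ difference of log2 0.55 ± 0.97 became -1.88 without the Tfh library and 1.65 without Tfh MUT. Without both Tfh MUT and Tfr, an alternative added with the data in view, it was 1.47. Each of these fits leaves Tfh with 1 library, so they are given as effect sizes only.

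**Figure D2:**
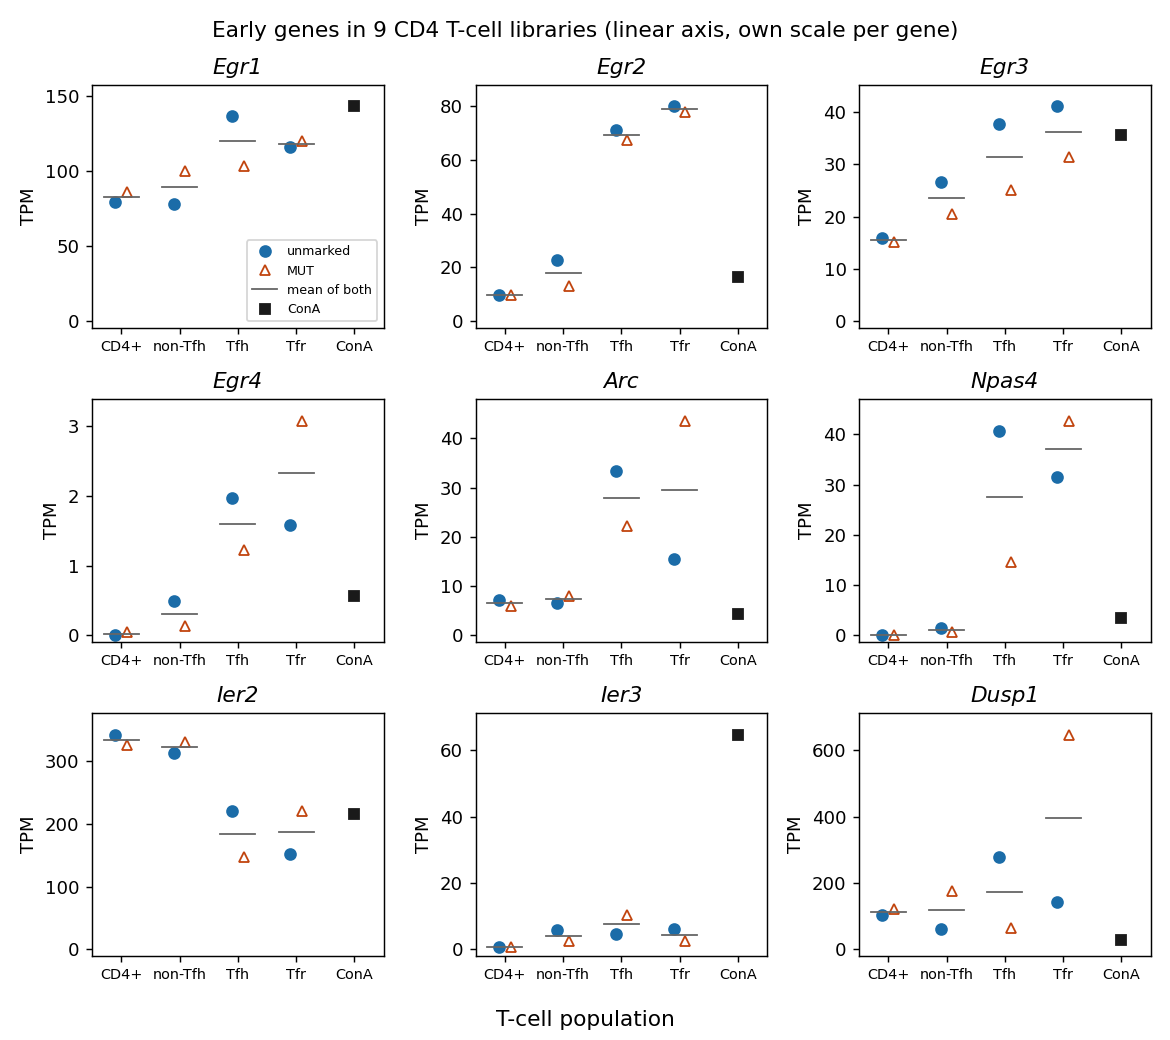
TPM of each member in the 9 CD4 T-cell libraries on linear axes with their own scale per gene, as circles for unmarked and triangles for MUT libraries, with lines at the mean of each pair and a square for ConA. Egr2 forms 2 tight levels, 67.6 to 79.9 TPM in Tfh and Tfr and 9.69 to 22.6 TPM in CD4+ and non-Tfh, while Dusp1 is spread from 64.9 to 646 TPM within the follicular libraries.

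Between the 2 follicular populations and between non-Tfh and CD4+ cells few members passed the test, which does not show that they were equal. Between Tfh and Tfr 0 of 9 members were called (edgeR, where 0.398% of all genes were). Members at an unadjusted edgeR p under 0.05 were 0 of 9, beside 1284 of 13064 genes. DESeq2 called 0 members, beside 617 genes over all. With shares this low, 0 of 9 says little about the members. For Egr2 the Tfr minus Tfh difference was log2 0.20 ± 0.24 and for Npas4 0.66 ± 0.50. In non-Tfh against CD4+ only Npas4 passed, 1 of 9 where 3.85% of all genes did. At an unadjusted p under 0.05 in edgeR there were 5 of 9 members, beside 1981 of 13064 genes. In Tfh against non-Tfh (6.58% of all genes called) and Tfr against non-Tfh (14.6%) the 2 of 9 that passed were Egr2 and Npas4.

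The Tfh and Tfr contrasts against CD4+ rested on few libraries. The number of members called changed when libraries were left out, and the number of genes called over all changed too. Effect sizes are therefore given over the 14 alternatives. Among them is the fit without Tfh MUT and Tfr, the libraries with the most B-cell transcripts, added with the data in view. The Egr2 difference from CD4+ was log2 2.39 to 2.71 in Tfh and 2.49 to 3.01 in Tfr. For Npas4 it was 4.58 to 8.82 in Tfh and 5.15 to 9.92 in Tfr. The low ends, 4.58 and 5.15, are from limma on log2(TPM + 1), a scale that understates changes of low genes. They do not come from leaving out a library. Against non-Tfh, Egr2 differed by log2 1.43 to 2.31 in Tfh and 1.64 to 2.51 in Tfr. Npas4 differed by 3.65 to 5.09 in Tfh, where 3.65 is also on the limma scale, and by 4.07 to 6.01 in Tfr. Both Tfh calls against non-Tfh, and that of Npas4 in Tfr, were lost without either non-Tfh library. The non-Tfh against CD4+ call of Npas4 was lost without either library of either population.

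No member passed the test of the MUT label (0 of 9, where edgeR called 0% of 13064 genes), which does not show that the label had no effect. At an unadjusted edgeR p under 0.05 there were 192 genes. DESeq2 called 0 members, beside 2 genes over all. The lowest unadjusted p of a member was that of Egr3, 0.0285, with log2 -0.33 ± 0.12 and a lower MUT value in 4 of 4 populations. Dusp1 differed between the MUT and unmarked libraries by 0.24 in CD4+, 1.54 in non-Tfh, -2.09 in Tfh and 2.16 in Tfr, in log2(TPM + 1). Heat-shock transcripts went the same way: Hspa1b was 131 and 135 TPM in CD4+ and CD4+ MUT, 232 and 418 TPM in non-Tfh and non-Tfh MUT, 472 and 79.2 TPM in Tfh and Tfh MUT, and 58.4 and 379.6 TPM in Tfr and Tfr MUT. The Tfh MUT and Tfr libraries, lowest in Dusp1 among the follicular libraries, were also the 2 with high B-cell markers, with Cd79a at 234 and 171 TPM against 34.4 to 46.3 TPM in the other 6. The part of these transcripts in the Dusp1 values was not tested. Without Tfh MUT and Tfr, the MUT term came from the CD4+ and non-Tfh pairs alone. It was then log2 0.89 for Dusp1 and -1.19 for Npas4. The Npas4 value rested on 11 against 4 reads in CD4+ and CD4+ MUT and 109 against 85 in non-Tfh and non-Tfh MUT.

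The lists drawn around the members are read beside the share of all genes called, 26.4% in Tfh and 30.4% in Tfr against CD4+. Of 38 other early response genes tested, 7 were higher and 2 lower in Tfh than in CD4+ (median log2 -0.15), and 11 were higher and 2 lower in Tfr (median 0.19). Among them were Nr4a2, a nuclear receptor (log2 4.24 ± 1.00 in Tfh and 5.34 ± 1.04 in Tfr), Dusp4, a MAP kinase phosphatase (3.46 ± 0.33 and 4.25 ± 0.35), and Ier5l (6.59 ± 0.62 and 6.59 ± 0.61), whereas Klf2, a quiescence factor of naive T cells, was lower (log2 -1.62 ± 0.20 and -3.25 ± 0.21). Of 19 EGR corepressors and reported T-cell targets, 8 were higher and 2 lower in Tfh (median 1.16) and 7 higher and 1 lower in Tfr (median 0.39). The inhibitory receptor gene Lag3 was higher by 6.97 ± 0.55 and 6.70 ± 0.55, the cytokine gene Tnfsf11 by 5.17 ± 0.32 and 4.95 ± 0.32, and the diacylglycerol kinase gene Dgka lower (log2 -1.42 ± 0.26 and -2.08 ± 0.26). Of 24 kinases, coactivators and factors upstream of early genes, 2 were higher and 6 lower in Tfh, and 3 higher and 6 lower in Tfr. The SRF coactivator gene Mkl1 was lower in both (log2 -0.70 ± 0.13 and -0.83 ± 0.13), and Nfatc1, a calcineurin target, was higher (log2 1.67 ± 0.13 and 1.27 ± 0.13). Of 15 heat-shock and dissociation genes, 3 were higher in Tfh and 5 in Tfr, and 0 were lower. The counts of other early response and heat-shock genes are near the share of all genes called.

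ConA-activated CD4 T cells, 1 library, were set against the CD4+ and CD4+ MUT libraries by size, without a test. A gene met this rule of size where its log2(TPM + 1) lay 1 or more above both, or 1 or more below both, and its higher level reached 10 TPM. Of 6 members with enough expression to be read, 3 met the rule, where 30.4% of genes did. Ier3 was at 64.6 TPM in ConA against 0.70 and 0.84 TPM, 92.6-fold (95% counting interval 64.8 to 137) and 77.4-fold (50.6 to 125) higher. Egr3 was 2.23-fold and 2.36-fold higher, at 35.7 TPM. Dusp1 was lower, at 27.2 TPM against 102 and 121 TPM, 3.76-fold and 4.45-fold. Npas4 reached 3.41 TPM (957 reads) against 0.08 and 0.05 TPM and stayed under the minimum of 10 TPM, and Egr2 at 16.5 TPM was 1.69-fold and 1.70-fold higher. Ier3 was higher in ConA than in all 8 sorted libraries, and Egr2, Arc and Npas4 were lower in ConA than in all 4 follicular libraries. In TMM-scaled CPM, with the minimum of 10 set on CPM, 5 members met the rule, and at a difference of 2 only 1 did. The share of all genes under these alternatives was not computed.

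B cells and T cells were compared next, with 7 primary B libraries against 9 CD4 T libraries. B cells held less Arc, Npas4, Egr4, Dusp1, Ier2 and Egr1 and more Egr3, and 7 of 9 members passed (1 higher, 6 lower in B), where 46.4% of all genes did. The median log2 difference over the members was -2.20 beside 0.01 over all genes tested. The spread in this test is between different states of a lineage, not between replicates. Erythroid markers were higher in B cells too (4 of 4 tested, summed level 3.4 to 11054 TPM against 0.4 to 29.4 TPM), as were 3 of 5 macrophage markers tested with 1 lower (13.0 to 392 against 6.6 to 25.8 TPM), and their part was not tested. Without the LPS+IL4, splenic B and ConA libraries 7 members passed as well (1 higher, 6 lower), where 7735 of 12561 genes did.

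Arc was 0.08 to 1.35 TPM in B cells (median 0.43) and 4.38 to 43.6 TPM in T cells (median 8.07). The ranges did not touch, and the difference was log2 -4.86 ± 0.69 (edgeR adjusted p = 5.35e-05). Npas4 gave at most 5 reads in any B library (0 to 0.08 TPM), at the level of CD4+ T cells, and 0.65 to 42.7 TPM in the other 7 T libraries (log2 -9.40 ± 1.65, edgeR adjusted p = 0.000337). Egr4 was 0 to 0.22 TPM in B cells and 0 to 3.08 TPM in T cells (log2 -3.78 ± 1.13, edgeR adjusted p = 0.0126), with overlap. In 8 of the 22 alternatives Npas4, and in 7 Egr4, fell under the filter on low counts and was not tested.

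Ier2 was 36.5 to 142 TPM in B cells and 147 to 341 TPM in T cells, with no overlap (log2 -1.34 ± 0.29, edgeR adjusted p = 0.00171). Dusp1 was 1.85 to 12.6 TPM in the 6 B cultures and 60.4 TPM in splenic B cells, against 27.2 to 646 TPM in T cells (log2 -3.66 ± 0.78, edgeR adjusted p = 0.0016). The splenic B library lay inside the T range and every culture below it. Egr1 was 18.6 to 96.1 TPM in B cells and 78.2 to 143 TPM in T cells (log2 -0.94 ± 0.24, edgeR adjusted p = 0.00569). Here too the overlap came from splenic B cells, which at 96.1 TPM were above both CD4+ libraries.

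Egr3 went the other way, at 14.5 to 190.2 TPM in B cells (median 49.2) and 15.1 to 41.1 TPM in T cells (median 26.7). The difference of log2 1.41 ± 0.42 passed (edgeR adjusted p = 0.0121), although the ranges overlapped and limma on log2(TPM + 1) gave an adjusted p of 0.083. The Egr2 difference was log2 -0.01 ± 0.65 (edgeR adjusted p = 0.993), with 7.47 to 143 TPM in B cells and 9.69 to 79.9 TPM in T cells. Ier3, at 1.03 to 7.0 TPM in B cells and 0.70 to 64.6 TPM in T cells, missed the threshold (log2 -2.20 ± 0.96, edgeR adjusted p = 0.0697).

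**Figure D3:**
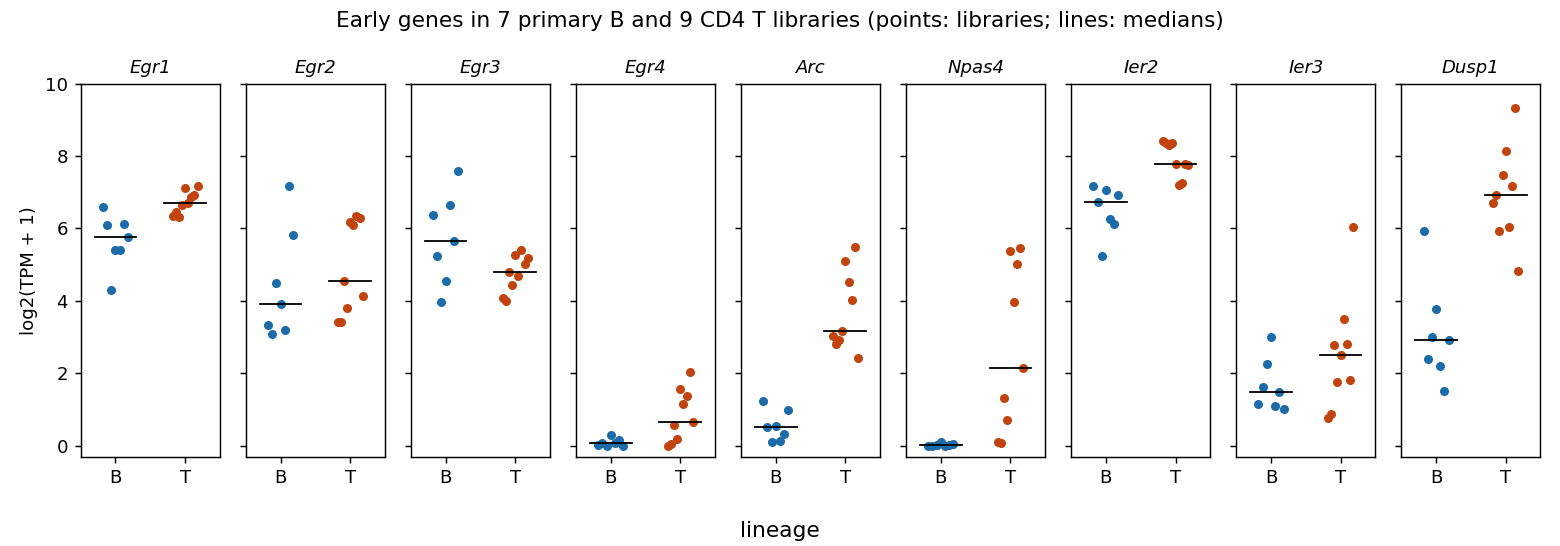
Level of each member as log2(TPM + 1) in the 7 primary B and 9 CD4 T libraries, as points, with lines at the medians. Arc and Ier2 do not overlap between the lineages, and Dusp1 and Egr1 overlap through the splenic B library, at 60.4 and 96.1 TPM.

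Restricting the comparison to activated cells, 6 B cultures against the 6 non-Tfh, Tfh and Tfr libraries, gave 7 of 9 members (1 higher, 6 lower in B), where 55.7% of all genes passed. This comparison shares 12 libraries with the one above. Egr1 was 18.6 to 69.4 TPM in the B cultures and 78.2 to 137 TPM in the T libraries, now without overlap (log2 -0.96 ± 0.24, edgeR adjusted p = 0.00456). Dusp1 separated further, at 1.85 to 12.6 against 60.0 to 646 TPM (log2 -4.97 ± 0.71, edgeR adjusted p = 0.000155), and Arc stood at 0.08 to 0.98 against 6.64 to 43.6 TPM (log2 -5.59 ± 0.71, edgeR adjusted p = 7.32e-05). Hspa1b was lower in the B cultures as well (log2 -6.96 ± 0.72), at 0.66 to 4.33 TPM against 58.4 to 472 TPM, and its part in these differences was not tested. The higher Egr3 in B cultures (log2 1.39 ± 0.51, edgeR adjusted p = 0.0348) was lost in 9 of 17 alternatives, among them those without LPS+a-d-dextran or aBCD180, where its adjusted p reached 0.279 at the most. Of 38 other early response genes tested, 4 were higher and 16 lower in the B cultures, which is near the share of all genes called. Fos, an AP-1 subunit, was lower by log2 -5.45 ± 0.92.

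Among the B-cell libraries Egr2 and Egr3 had different orders. Egr2 was 143 TPM with aCD40+IL4 and 55.9 TPM with aBCD180, against 21.6 TPM with LPS+IL4, 14.1 TPM with LPS+IL21, 9.09 TPM in splenic B cells, 8.14 TPM with LPS+a-d-dextran and 7.47 TPM with LPS. Both cultures without LPS were thus above all 4 with it and above splenic B cells. Egr3 was 190.2 TPM with aBCD180, 98.9 TPM with LPS+a-d-dextran, 81.1 TPM in splenic B cells, 49.2 TPM with aCD40+IL4, 36.7 TPM with LPS, 22.6 TPM with LPS+IL21 and 14.5 TPM with LPS+IL4. The culture with the most Egr2 was therefore not the culture with the most Egr3.

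Egr1 was 96.1 TPM in splenic B cells, 69.4 TPM with aCD40+IL4, 67.4 TPM with LPS, 53.8 TPM with aBCD180, 41.5 TPM with LPS+IL21 and with LPS+a-d-dextran, and 18.6 TPM with LPS+IL4. Ier2 was 142 TPM in splenic B cells, 133 TPM with LPS+IL21, 121 TPM with aBCD180, 105 TPM with LPS, 75.2 TPM with LPS+a-d-dextran, 69.1 TPM with aCD40+IL4 and 36.5 TPM with LPS+IL4. LPS+IL4 was the lowest of the 7 for Egr1, Egr3 and Ier2, and it is 1 of the 4 libraries with the other effective length. Ier3 was between 1.03 TPM with aBCD180 and 7.0 TPM with LPS+IL21. Arc, Egr4 and Npas4 were at 1.35 TPM or less in all 7.

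In a fit over the 6 cultures with IL4 and LPS as terms, 0 of the 7 members tested passed for IL4 (edgeR; 0.04% of 12515 genes called, 5 genes, with 1547 at an unadjusted p under 0.05) and 0 for LPS (0% called, 507 at an unadjusted p under 0.05). Egr4 and Npas4 were under the filter on low counts. The cultures without LPS held aCD40+IL4 or aBCD180 in its place, so the LPS term cannot be told apart from those stimuli. For this term, Egr2 had log2 -2.43 ± 0.35 (unadjusted p = 0.000332, edgeR adjusted p = 0.693). DESeq2 called it, the 1 member among the 147 genes that DESeq2 called. Egr3 had log2 -1.69 ± 0.55 for LPS and -1.85 ± 0.63 for IL4, with unadjusted p of 0.0201 and 0.0228 in edgeR. For IL4, Egr2 had log2 1.24 ± 0.36 and Ier2 log2 -1.20 ± 0.37, with unadjusted p of 0.0115 and 0.0156 in edgeR, and DESeq2 called 0 members. Haemoglobin transcripts also differed between these cultures, with Hba-a1 at 0.17 TPM in LPS+IL4 and 873 to 9495 TPM in the other 5, and their part was not tested.

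**Figure D4:**
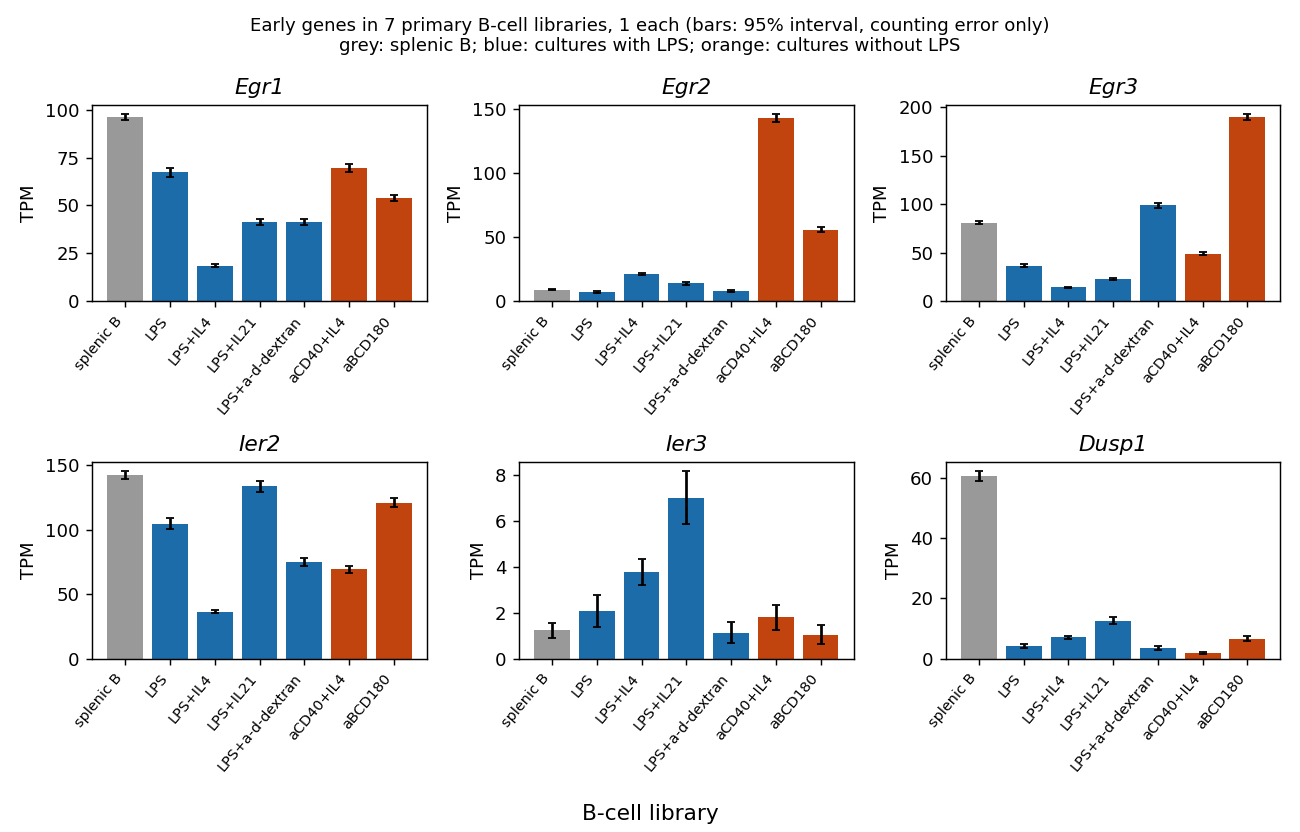
TPM of 6 members in the 7 primary B-cell libraries, with bars from 0 and 95% intervals that cover counting error only. Splenic B cells are grey, cultures with LPS blue and cultures without it orange. Egr2 peaks with aCD40+IL4 (143 TPM), Egr3 with aBCD180 (190.2 TPM) and Dusp1 in splenic B cells (60.4 TPM).

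Splenic B cells, 1 library, differed from all 6 cultures by the rule of size in Dusp1 alone, 1 of the 5 members that could be read, where 7.57% of genes met the rule. Dusp1 was 60.4 TPM in splenic B cells against 4.27 TPM with LPS, 7.06 TPM with LPS+IL4, 12.6 TPM with LPS+IL21, 3.62 TPM with LPS+a-d-dextran, 1.85 TPM with aCD40+IL4 and 6.62 TPM with aBCD180, a ratio of 4.8 to 32.7. Fos and Fosb, both AP-1 subunits, were also higher in splenic B cells by 6.54 and 5.0 in log2(TPM + 1), and 9 of 35 other early response genes met the rule upwards and 0 downwards. Hspa1b was higher by 4.96. Macrophage transcripts were present in splenic B cells too, with C1qa at 79.7 TPM against 0 to 0.54 TPM in the cultures, and the part of either in Dusp1 was not tested.

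CH12 lymphoma cells differed from the 6 activated B cultures in 2 of 6 members, where 8.18% of genes met the rule. Egr3 was at 0.11 TPM against 14.5 to 190.2 TPM, which is 136-fold to 1780-fold lower. Ier3 was at 21.6 TPM against 1.03 to 7.0 TPM, 3.09-fold to 21.0-fold higher. Dusp1, at 22.6 TPM, was above all 6 cultures but less than 2-fold above LPS+IL21. Arc, Egr4 and Npas4 were listed at 0 in CH12. At a difference of 2 in place of 1, only Egr3 met the rule, and the share of all genes at that setting was not computed.

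The 3 brain regions are single libraries and were read by the same rule, with intervals for counting error only. Cortex held the most Egr1, Egr3, Arc, Npas4, Ier2, Ier3 and Dusp1, putamen the most Egr4, and medulla the least of the EGR genes, Arc and Npas4. Cortex exceeded medulla in 7 of the 8 members that could be read (17.1% of genes met the rule), putamen exceeded medulla in 5 of 7 (19.7%) and cortex exceeded putamen in 3 of 8 (12.3%). No member met the rule downwards in any of these 3 comparisons, which share their libraries. The median log2(TPM + 1) difference over the members read was 3.82, 2.80 and 0.80, beside -0.03, -0.05 and 0.01 over all genes.

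Egr1 was 340 TPM in cortex, 179 TPM in putamen and 24.9 TPM in medulla. Cortex was 13.6-fold (95% interval 12.9 to 14.4) and putamen 7.18-fold (6.80 to 7.59) above medulla, while the cortex to putamen ratio of 1.90 (1.85 to 1.95) did not meet the rule. Egr3 was 237 TPM in cortex, 147 TPM in putamen and 4.35 TPM in medulla, ratios to medulla of 54.4 (48.8 to 60.9) and 33.8 (30.3 to 37.8). Medulla was thus set apart far more sharply in Egr3 than in Egr1.

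Egr2 was near equal in the forebrain regions, at 17.3 TPM in cortex and 16.5 TPM in putamen, a ratio of 1.05 whose interval of 0.954 to 1.15 includes 1. In medulla it was 0.20 TPM (11 reads), 87.4-fold (48.6 to 176) below cortex. Egr4 was the 1 member higher in putamen than in cortex, at 92.8 against 68.7 TPM, 1.35-fold (1.28 to 1.42), and stood at 1.81 TPM in medulla, 37.9-fold (30.1 to 48.5) below cortex and 51.2-fold (40.6 to 65.4) below putamen.

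Arc, with Ier2, differed most between the forebrain regions. At 564 TPM in cortex it was higher than 98.7% of protein-coding genes in that library, at 124 TPM in putamen and at 21.3 TPM in medulla. Cortex was 4.54-fold (4.42 to 4.66) above putamen and 26.5-fold (25.1 to 28.1) above medulla. Npas4 was low in all 3 regions, at 8.78, 6.45 and 1.17 TPM in cortex, putamen and medulla, under the minimum of 10 TPM, with 7.52-fold (5.89 to 9.71) more in cortex than in medulla.

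The remaining members separated cortex and putamen from medulla less than the EGR genes and Arc did. Ier2 was 20.8 TPM in cortex, 4.28 TPM in putamen and 7.85 TPM in medulla, so that cortex was 4.85-fold (3.97 to 5.98) above putamen and putamen lay below medulla. Ier3 was 21.6, 8.63 and 15.2 TPM in cortex, putamen and medulla, again lowest in putamen. Dusp1 was 68.8, 42.6 and 32.6 TPM, with cortex 2.11-fold (1.97 to 2.26) above medulla.

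**Figure D5:**
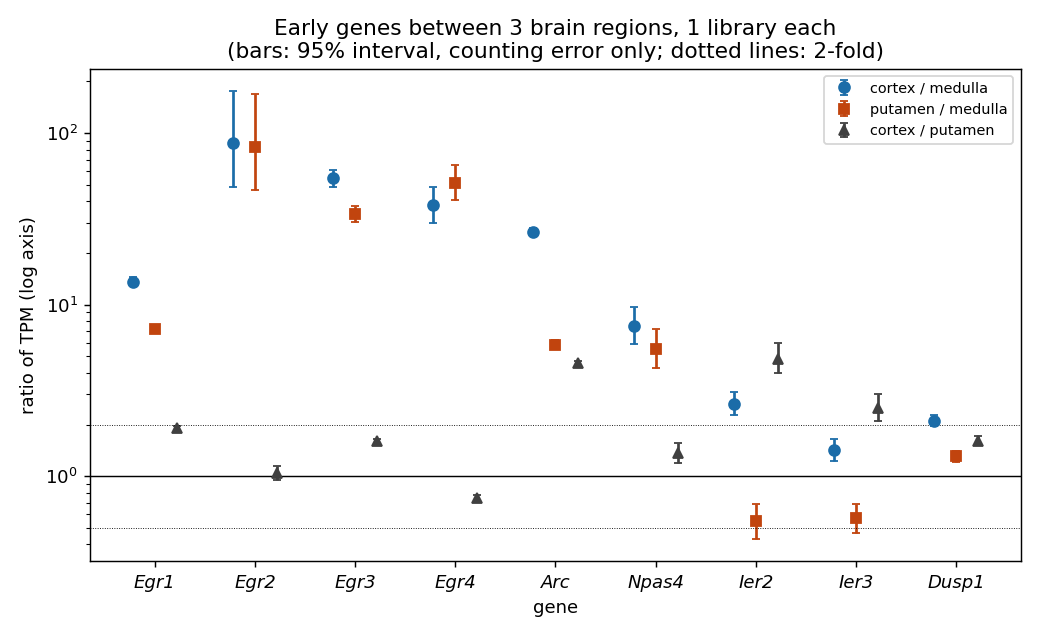
Ratios of TPM between the 3 brain regions for each member on a log axis, with 95% intervals that cover counting error only and dotted lines at 2-fold. The EGR genes and Arc lie from 5.84-fold to 87.4-fold above medulla, while Ier2 and Ier3 in putamen lie below medulla.

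The cell makeup of the 3 libraries differed beside these values. The summed level of 6 neuron markers was 6728 TPM in cortex, 2998 TPM in putamen and 6082 TPM in medulla, and that of 6 oligodendrocyte markers was 6662, 8818 and 29422 TPM. The 6 astrocyte markers summed to 2162, 1908 and 6322 TPM, and no marker of these 3 lists was at 0. The part of cell makeup in the region differences was not tested. The lists below are read beside the 17.1%, 19.7% and 12.3% of genes that met the rule in cortex against medulla, putamen against medulla and cortex against putamen. Of 15 delayed activity genes, 12 met the rule upwards and 0 downwards in cortex against medulla, among them Homer1, a synaptic scaffold (difference 4.01), and Nptx2, a secreted pentraxin (3.59). Of 13 read in putamen against medulla, 7 met it upwards and 1 downwards. In cortex against putamen 5 of 15 were higher and 1 lower, with Bdnf, a neurotrophin, higher by 3.21 and Nrn1 by 4.42. Of 30 other early response genes, 13 were higher and 0 lower in cortex than in medulla, with the nuclear receptor Nr4a1 up by 3.22 and Fosb up by 2.44.

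The 2 libraries outside these comparisons differed in which members they held. Basophils had 207 TPM of Ier3, 170 TPM of Ier2 and 24.9 TPM of Dusp1 beside 10.3 TPM of Egr1, 1.07 TPM of Egr3 and 0.09 TPM of Egr2. The 6 neutrophil markers summed to 2970.0 TPM and the 8 macrophage markers to 1727 TPM in that library, and their part in its Ier3 value was not tested. Back skin had 94.4 TPM of Egr1, 50.9 TPM of Egr3, 36.8 TPM of Egr2, 58.7 TPM of Ier3, 85.4 TPM of Ier2 and 38.9 TPM of Dusp1.

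The genes most like each member over the 22 libraries were found by Pearson's r of log2(TPM + 1) among 13896 genes, as a description without a test. Libraries of 1 tissue or lineage share most of their expression, so the points are not independent. Npas4 was most like C2cd4b (r = 0.96), Rgs16 (0.95) and Stx6 (0.90), and Egr2 most like Twsg1 (0.74), Nab2 (0.71) and Ephx1 (0.69). Nab2, a corepressor that binds EGR proteins, was 112 to 120 TPM in the follicular libraries and 78.0 to 99.1 TPM in the CD4+ and non-Tfh libraries. Egr4 was most like Icam5 (0.96), Celf3 (0.96) and Ddn (0.95), Arc most like Zfp93 (0.94), Prrt1 (0.94) and Kcnip2 (0.93), and Egr1 most like Hivep2 (0.82). Dusp1 was most like Arhgap31 (0.90), Fos (0.88) and Hsd11b1 (0.88), Ier2 most like Def6 (0.92), Ier3 most like Adora2b (0.89) and Egr3 most like Hook1 (0.84). Among the members, Egr1 correlated with Arc (r = 0.73) and Egr3 (0.69) and had r of 0.01 with Ier2.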

How the data were processed

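The 22 libraries were grouped by GEO's labels alone. Per the file headers, the authors' gene tables hold expected counts, TPM and FPKM, the layout of RSEM. The deposited expected counts are reads per gene before normalization. The authors' TPM adjust for transcript length and sum to a constant, and the deposited FPKM values were not used. CASAVA 1.8.2, STAR, RSEM and bedtools with mm10 appear in the submitters' processing notes, without roles or settings. Of expected counts above 0, 86.1% were whole (within 1e-09), and all were rounded before fitting. Intervals of single libraries (95%) cover counting error alone.

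Counts were fitted with edgeR 4.0.16 under R 4.3.3 (TMM factors, filterByExpr for low counts, quasi-likelihood F-test, Benjamini-Hochberg over all genes tested, threshold 0.05). Single libraries were read by a rule of size: a difference in log2(TPM + 1) of at least 1 from every comparison library, with at least 10 TPM on the higher side. Fold changes on that scale understate changes of low genes. Alternatives were RLE factors, no filter, DESeq2 1.42.0, limma 3.58.1, other terms, other thresholds and each library left out. The fits were also run on simulated counts drawn independently for each library, a setting without MUT differences or transcripts of other cells. Named genes were the members, up to 4 called genes per list and direction, markers, and the 3 genes most like each member. The members and lists were chosen with earlier results of these data known. Chromatin data were not analysed here.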

Additional observations from a re-analysis of the deposited data

Results flagged for a closer look

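Dusp1 and Ier3 differed between the MUT and unmarked libraries in opposite directions in the follicular populations. For Dusp1 the MUT minus unmarked difference in log2(TPM + 1) was 2.16 in Tfr and -2.09 in Tfh. For Ier3 it was 1.01 in Tfh and -1.02 in Tfr. Each value is 1 library against 1, and the difference between the populations was not tested.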

How the results depend on the processing

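Of the 31 calls of single members by edgeR, 17 kept their call under all of their alternatives and 0 reversed, and 49 of 494 recomputed values missed the threshold. With DESeq2 the number of members called was 2 for non-Tfh against CD4+, 4 for Tfh against non-Tfh, 5 for Tfr against non-Tfh and 1 for LPS. Over all genes DESeq2 called 1195, 2312, 3359 and 147 in these contrasts, where edgeR called 503, 860, 1907 and 0. With limma 0 members were called for non-Tfh against CD4+ (406 genes over all). Without the MUT term 4 were called for Tfr against non-Tfh (2711 genes over all). With Tfh MUT and Tfr both removed, an alternative chosen after seeing the data, Tfh and Tfr each hold 1 library and no count is given. The Tfr minus Tfh difference was then log2 0.61 for Egr2 and 1.31 for Npas4. Leaving out 1 library at a time gave 0 to 2 for non-Tfh against CD4+, 2 to 7 for Tfh and for Tfr against CD4+, 0 to 4 for Tfh and 1 to 6 for Tfr against non-Tfh, 5 to 8 for B against T, 5 to 7 for activated B against effector T, and 2 to 3 for CH12. The number of genes called over all moved with these fits too, so the ranges do not describe the members alone. It ran from 5038 to 6648 for B against T and from 6162 to 7373 for activated B against effector T. In the contrasts between T populations listed here it rose without some libraries and fell without others. By the rule of size, ConA gave 5 in TMM-scaled CPM and 1 at a difference of 2, and CH12 gave 1 at a difference of 2. No share of all genes was computed for these settings. The Dusp1 difference between Tfh and CD4+, not called with all libraries, ran from log2 -1.88 without Tfh to 1.65 without Tfh MUT. It was 1.47 with Tfh MUT and Tfr both removed. No cause of these changes was tested. A population left with a lone library was assumed to vary like the others. No paired analysis was possible because the labels give no replicate numbers. Low counts limit Egr4 and Npas4 in B cells and CD4+ T cells.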
